A study of Mus musculus with 6 samples.

Results

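The genes described here are 35 transcriptional targets of the tumour suppressor p53, read in mouse embryonic fibroblasts (MEFs) that lack p53. They were listed for their known regulation by p53, and every probe annotated to a listed gene was taken. Of the 35 genes, 33 had a probe and 29 had one above background (detection p under 0.01) on at least 1 array, among 10160 genes tested in all. The 6 MEF lines profiled were 2 Rnaseh2b-/- p53-/- lines and 4 Rnaseh2b+/+ p53-/- lines, hereafter Rnaseh2b-/- and Rnaseh2b+/+. Rnaseh2b encodes a subunit of RNase H2, which removes ribonucleotides from genomic DNA, and in its null allele (tm1d) exon 5 was deleted by Cre recombinase under a ubiquitous promoter. The absence of p53 (Trp53 tm1Tyj) was shared by both groups, so no line here had p53 and a gene's dependence on it could not be measured. Each line came from 1 whole E10.5 embryo on the C57BL/6J background and was grown in 3% O2 and 5% CO2. RNA was taken 20 h after a change of medium, with no other treatment, and lines are numbered as the labels number the replicates. The 2 Rnaseh2b-/- lines were those the study picked among its lines for a stronger induction of interferon-stimulated genes, and they need not stand for Rnaseh2b-/- cells in general.

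p53 is a transcription factor that is stabilised when DNA is damaged. It binds a DNA element made of paired decamers and switches on genes that stop the cell cycle, start apoptosis, repair DNA and, through Mdm2, end its own activity. Ribonucleotides left in genomic DNA cause damage, RNase H2 null mouse embryos die early and are known to activate p53 target genes, and the lines used here were raised without p53 because of that lethality. Many of the target genes also have p53-independent transcription, which is what a p53-/- cell can show.

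Promoters of 3 of the 11 members with at least 1 match to the p53 decamer consensus are shown as examples. The sequences are RefSeq promoters of GRCm38.p6, each running from 250 bases before to 50 after an annotated start, and capitals mark full matches to the p53 decamer consensus on either strand. Decamers with a mismatch stay in lower case, so a marked pair need not be the element that p53 binds. Cdkn1a has an upstream start whose promoter (chr17:29090729-29091028, plus strand) held 2 decamers with 12 bases between them, and a downstream start whose promoter (chr17:29093519-29093818, plus strand) held none. The promoter of Mdm2 (chr10:117710709-117711008, minus strand) held 1, and that of Rps27l (chr9:66946163-66946462, plus strand) held 2, which lie 93 bases apart.
Cdkn1a, upstream start: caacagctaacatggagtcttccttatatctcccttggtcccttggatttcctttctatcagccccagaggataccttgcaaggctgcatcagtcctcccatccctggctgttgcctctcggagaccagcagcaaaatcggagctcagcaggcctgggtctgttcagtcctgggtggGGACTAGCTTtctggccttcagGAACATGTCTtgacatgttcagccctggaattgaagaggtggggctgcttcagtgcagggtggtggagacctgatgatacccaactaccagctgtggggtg
Cdkn1a, downstream start: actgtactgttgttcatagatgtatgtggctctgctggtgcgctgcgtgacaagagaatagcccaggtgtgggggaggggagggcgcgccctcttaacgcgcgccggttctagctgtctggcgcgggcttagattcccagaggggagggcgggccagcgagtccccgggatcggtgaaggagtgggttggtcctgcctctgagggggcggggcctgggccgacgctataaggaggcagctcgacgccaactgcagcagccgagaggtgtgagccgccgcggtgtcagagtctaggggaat
Mdm2: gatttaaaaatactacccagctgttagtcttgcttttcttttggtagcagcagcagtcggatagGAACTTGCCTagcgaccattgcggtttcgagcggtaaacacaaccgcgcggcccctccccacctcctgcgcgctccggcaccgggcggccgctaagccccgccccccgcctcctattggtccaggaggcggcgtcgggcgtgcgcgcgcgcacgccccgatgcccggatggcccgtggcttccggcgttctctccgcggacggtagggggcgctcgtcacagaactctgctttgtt
Rps27l: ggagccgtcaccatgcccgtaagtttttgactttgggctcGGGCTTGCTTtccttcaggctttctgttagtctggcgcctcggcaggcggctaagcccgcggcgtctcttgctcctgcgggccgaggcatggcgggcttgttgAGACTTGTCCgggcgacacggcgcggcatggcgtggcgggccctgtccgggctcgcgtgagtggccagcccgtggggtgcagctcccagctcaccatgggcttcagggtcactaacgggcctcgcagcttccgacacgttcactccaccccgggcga

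Promoter sequences were at hand for 28 of the 35 members, 44 promoters in all. The promoters of Ddb2, Perp, Pmaip1, Tnfrsf10b, Trp53inp1, Xpc and Zmat3 were not analysed here. A p53 decamer was found in 12 of the 44 promoters (27.3%), which belong to 11 members, and in 8.36% of the 32851 promoters of all genes. Besides Cdkn1a, Mdm2 and Rps27l these were Abhd4, Aen, Bax, Ccng1, Ckap2, Ei24, Polk and Sesn1. Examples are GGGCATGCCC near the start of Ei24, AGACATGTCC in Ckap2 and GGGCAAGCCT in Ccng1. A pair of decamers no more than 13 bases apart was found for Cdkn1a alone among the members, in 1 of 44 promoters (2.27%) against 0.0731% of all promoters. Motifs of other factors were searched on both strands in the same windows. The E-box CANNTG was found in 63.6% of the members' promoters and 72.3% of all promoters. TATAAA, the core of the TATA box, was found for Eda2r alone, in 2.27% of members' promoters against 13.6% of all. TGATGNAA, a motif of ATF4, was found for Polk alone (2.27% against 3.97%), and TTTNGCGC, a motif of E2F factors, for Ercc5 alone (2.27% against 1.38%). A match describes the letters in a window and is not a measured site.

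Signal is given as background-corrected, quantile-normalized log2 intensity, and differences are Rnaseh2b-/- minus Rnaseh2b+/+ on that log2 scale with their standard error (SE). Adjusted p-values are from limma with Benjamini-Hochberg correction over all 10160 genes and a threshold of 0.05. Rnaseh2b itself was at 5.43 and 5.53 in the Rnaseh2b-/- lines, against 9.81, 9.17, 9.48 and 9.50 in the Rnaseh2b+/+ lines (log2 fold change -4.01, SE 0.19, adjusted p = 0.00121), which fits the labels. No probe was named Trp53, so the loss of p53 was not checked on the arrays. Of the 12 fibroblast markers listed, 11 were above background on all 6 arrays and Postn on 5. Markers of muscle, and some keratins among the markers of epithelium, stood apart in the Rnaseh2b-/- lines. The mean of the 18 tested muscle genes lay 4.90 and 0.61 above the control mean on the log2 scale in Rnaseh2b-/- lines 1 and 2, against -0.39 to 0.52 in the Rnaseh2b+/+ lines. Of these genes, 4 were above background in Rnaseh2b-/- line 1 alone and passed the filter through it. For the 8 tested of 16 listed epithelial genes it was 2.27 and 1.41 in Rnaseh2b-/- lines 1 and 2, against -0.35 to 0.34 in the Rnaseh2b+/+ lines. Among them Krt7, Krt8, Krt14, Krt18 and Krt19 had log2 fold changes of 2.31 to 3.18, while Cldn7 was at 0.02. Cldn3 was above background in 1 Rnaseh2b-/- line and no Rnaseh2b+/+ line. Of the defining muscle markers, Myod1 was above background in Rnaseh2b-/- line 1 only, Myog in 1 Rnaseh2b-/- and 1 Rnaseh2b+/+ line, and Myf5 and Ckm on no array. Of the defining epithelial markers, Cdh1 was above background in both Rnaseh2b-/- and 2 Rnaseh2b+/+ lines, with overlapping groups, and Epcam on no array. Cldn4, Cldn6, Esrp1, Esrp2, Tjp3 and Krt5 were above background on no array either. In such bulk RNA fewer cells of a type and less RNA per cell cannot be told apart.

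Transcripts of most p53 targets were detected without p53. Of the 33 members with a probe, 26 (78.8%) were above background in all 4 Rnaseh2b+/+ lines, beside 44.3% of the 19057 genes with a probe. On at least 1 of the 6 arrays it was 29 members (87.9%), beside 53.3% of all genes. Btg2 (an antiproliferative protein), Aen (an exonuclease of apoptosis), Perp (a membrane protein of desmosomes) and Cyfip2 (a regulator of actin) were above background on no array. Bax, the pore-forming effector of mitochondrial apoptosis, and Gdf15, a secreted stress cytokine, had no named probe. Psrc1, Eda2r, Pmaip1 and Steap3 were above background on some arrays only, and the other 25 members on all 6.

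Between the genotypes 3 p53 targets stood out in size: Cdkn1a (log2 fold change 1.47) and Cd82 (0.96), high in both Rnaseh2b-/- lines, and Zmat3 (-0.91), low in both. Zmat3 was the only member past the threshold, 1 of 29 (3.45%), while 0.157% of all genes tested were lower. No member was higher past the threshold (0.354% of all genes). At an unadjusted p under 0.05, 2 members were above the controls (Cdkn1a and Cd82, 6.90% against 7.99% of all genes) and 1 was lower (3.45% against 9.13%). Both Rnaseh2b-/- lines lay above all 4 Rnaseh2b+/+ lines for 2 members (6.90%; 12.5% of all genes) and below them for 4 (13.8%; 15.1% of all genes), namely Zmat3, Bbc3, Rps27l and Ercc5. For Bbc3 this held for the mean of its probes and for none of the probes alone. In all, 6 members (20.7%) had both lines outside the controls, beside 27.6% of all genes. The median log2 fold change of the 29 members was -0.11, beside -0.02 over all genes, with 10 members positive and 19 negative (34.5% positive, beside 47.4% of all genes). These counts and the median include the fitted values of Psrc1 and Eda2r, each of which was above background in no line of a group. They also include Steap3, whose 2 kept probes were each above background in no line of 1 group. Among the other 26 members the log2 fold change ran from -0.46 for Fas to 0.50 for Ckap2, with adjusted p-values (limma) of 0.306 to 0.968. For 24 of these 26 the 95% confidence interval of the difference lay within 1 log2 unit of 0. The exceptions were Pmaip1 (-1.19 to 1.32, with 1 line below background) and Ckap2 (up to 1.16).

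**Figure D1:**
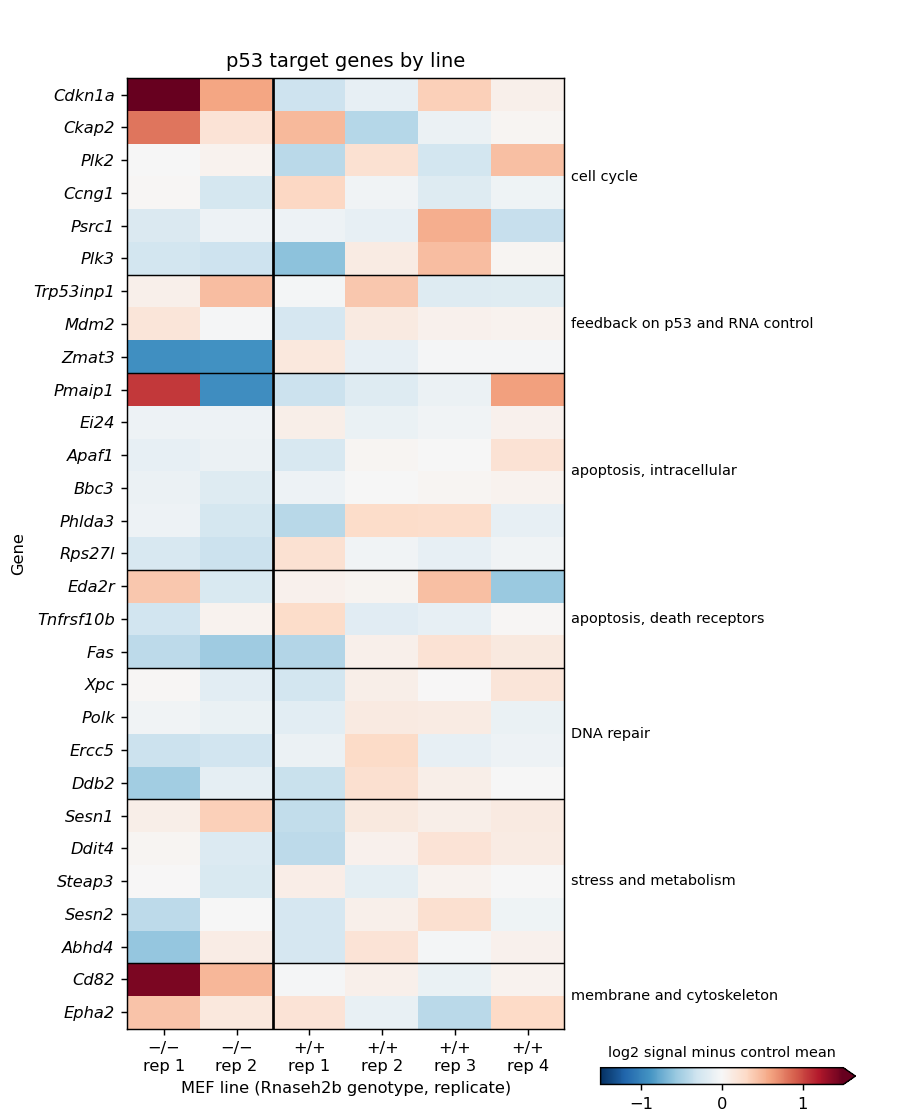
Heat map of the 29 tested p53 target genes (rows, grouped by role) in the 2 Rnaseh2b-/- and 4 Rnaseh2b+/+ lines (columns); the colour is the log2 signal minus the mean of the 4 Rnaseh2b+/+ lines, with the scale ending where the bar has an arrow. Zmat3 is low in both Rnaseh2b-/- lines, Cdkn1a and Cd82 are high in both and higher in line 1, Pmaip1 is high in line 1 and low in line 2, and most other rows are pale.

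**Figure D2:**
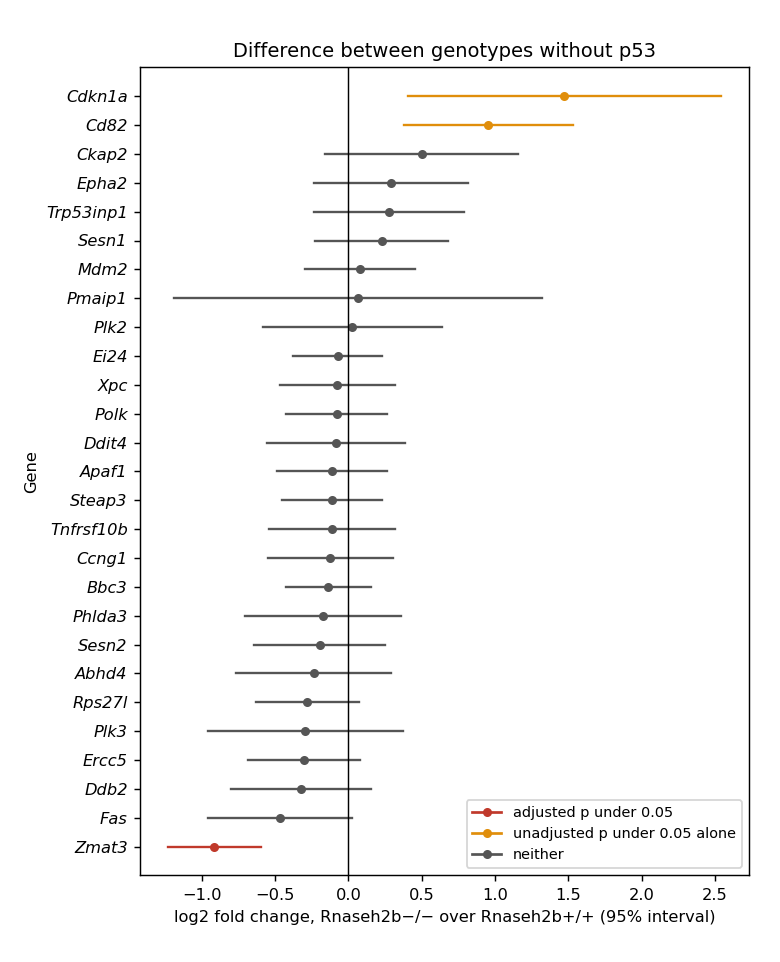
Log2 fold change of the tested p53 target genes, Rnaseh2b-/- minus Rnaseh2b+/+ (points), with its 95% confidence interval (lines). Psrc1 and Eda2r, below background throughout 1 group, are left out, and the points run from -0.91 for Zmat3 to 1.47 for Cdkn1a. Steap3 is shown by its fitted value, although each of its probes was below background throughout 1 group.

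Zmat3 encodes a zinc-finger RNA-binding protein that acts on the stability and splicing of other transcripts of the p53 pathway. Its signal was 7.25 and 7.26 in the Rnaseh2b-/- lines, against 8.32, 8.05, 8.15 and 8.15 in the Rnaseh2b+/+ lines. The groups did not overlap, and both Rnaseh2b-/- lines were low to almost the same extent. The log2 fold change was -0.91 (SE 0.13, adjusted p = 0.0481 by limma), or 1.88-fold lower. It rests on a single probe, whose intensity before normalization was 220.1 and 230.5 in the Rnaseh2b-/- lines, against 442.9, 424.8, 397.4 and 357.0 in the Rnaseh2b+/+ lines. The Rnaseh2b-/- arrays were also dimmer in median intensity (107.6 and 115.2, against 124.1 to 129.3), so the raw difference includes that of the arrays. The call was at the edge of the threshold: over 17 other settings the log2 fold change stayed between -1.05 and -0.59 and the adjusted p (limma) ran from 0.0322 to 0.385. Without Rnaseh2b+/+ line 2, 3 or 4, the adjusted p (limma) was 0.142, 0.141 and 0.158. In those fits 0, 5 and 8 of all genes were higher past the threshold and 1 was lower in each. The main fit had 36 and 16. Without Rnaseh2b+/+ line 1 it was 119 and 103, and Zmat3 passed. With single lines left out, its log2 fold change stayed between -0.95 and -0.86. The exact two-sided permutation test over 2 and 4 lines cannot give a p below 0.0667.

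Mdm2 and Trp53inp1, grouped here with Zmat3, were near their control level. Mdm2 encodes the ubiquitin ligase that marks p53 for destruction. It was at 9.99 and 9.79 in the Rnaseh2b-/- lines, against 9.56, 9.95, 9.88 and 9.86 in the Rnaseh2b+/+ lines. The groups overlapped (log2 fold change 0.08, SE 0.16, 95% confidence interval -0.30 to 0.46, adjusted p = 0.822 by limma). Trp53inp1, a nuclear protein of stress-induced death and autophagy, had a log2 fold change of 0.27 (SE 0.22, adjusted p = 0.545 by limma).

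Among the cell cycle genes Cdkn1a had the highest log2 fold change of all members. It encodes p21, the inhibitor of cyclin-dependent kinases through which p53 arrests cells. Its signal was 9.87 and 8.10 in the Rnaseh2b-/- lines, against 7.20, 7.39, 7.87 and 7.59 in the Rnaseh2b+/+ lines. Both Rnaseh2b-/- lines lay above all controls, but line 1 lay 1.77 log2 units above line 2, a gap reached by 1.72% of all genes tested. The log2 fold change was 1.47 (SE 0.45, unadjusted p = 0.0138, adjusted p = 0.190 by limma), or 2.78-fold. The 3 probes gave log2 differences of 1.68, 1.49 and 1.25, and for the last of these the groups overlapped. The size depended on the line: without Rnaseh2b-/- line 2 the log2 fold change was 2.36, and without Rnaseh2b-/- line 1 it was 0.59. The muscle markers, 4.90 and 0.61 above the control mean in Rnaseh2b-/- lines 1 and 2, were high in the same line. Their part in the result was not tested.

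The remaining cell cycle members showed no difference beyond the spread between lines. Plk3, a polo-like stress kinase, had the largest spread among the controls of any member: 7.39 and 7.35 in the Rnaseh2b-/- lines, against 7.05, 7.79, 8.13 and 7.69 in the Rnaseh2b+/+ lines (log2 fold change -0.29, SE 0.28, adjusted p = 0.617 by limma). Plk2, a related kinase, and Ccng1, the cyclin G1 gene, had log2 fold changes of 0.03 and -0.12. Ckap2, which encodes a mitotic microtubule protein, was at 0.50 (SE 0.28, adjusted p = 0.396 by limma) with overlapping groups. Psrc1, a spindle protein, was above background in neither Rnaseh2b-/- line (4.85 and 4.99) and in 1 of the 4 Rnaseh2b+/+ lines (4.99, 4.95, 5.62 and 4.72). With no Rnaseh2b-/- signal above background, its difference is not a measured fold.

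Apart from Pmaip1, whose Rnaseh2b-/- lines lay on either side of the controls, the genes of intracellular apoptosis lay close to or slightly under the control level. Of the 6 tested, 1 had a positive difference, Pmaip1 (47.4% of all genes), and none passed the test. Bbc3 encodes PUMA, a BH3-only protein that frees the pore formers of mitochondria. It was at 6.53 and 6.43 in the Rnaseh2b-/- lines, against 6.54, 6.61, 6.64 and 6.67 in the Rnaseh2b+/+ lines, and its control SD of 0.05 was the smallest among members. Both Rnaseh2b-/- lines lay below the controls, by little (log2 fold change -0.14, SE 0.12, adjusted p = 0.598 by limma), and only 1 of its 3 probes was above background on all arrays. That probe read 8.64 and 8.91 in the Rnaseh2b-/- lines, against 8.79, 8.93, 8.93 and 9.20 in the Rnaseh2b+/+ lines. The groups overlapped for each of the 3 probes, so the separation and the small SD belong to their mean alone. Rps27l encodes a ribosomal-protein-like factor that affects p53 stability. It was at 12.81 and 12.72 in the Rnaseh2b-/- lines, against 13.27, 12.99, 12.92 and 12.99 in the Rnaseh2b+/+ lines (log2 fold change -0.28, SE 0.15, adjusted p = 0.372 by limma). The groups did not overlap, though the gap was smaller than the range of the controls.

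Pmaip1 encodes NOXA, another BH3-only protein. Its signal was 7.05 and 5.05 in the Rnaseh2b-/- lines, against 5.65, 5.79, 5.89 and 6.59 in the Rnaseh2b+/+ lines. The Rnaseh2b-/- lines lay on either side of all 4 controls, and line 2 was not above background. Set against the lowest detectable signal on the array of line 2 (5.63), the gap between the Rnaseh2b-/- lines was at least 1.41 log2 units. The fitted difference was 0.07 (SE 0.53, adjusted p = 0.959 by limma). Without Rnaseh2b-/- line 2 it was 1.07, and without Rnaseh2b-/- line 1 only a bound can be given, at least 1.27-fold lower in Rnaseh2b-/- line 2 than the control mean. Apaf1 (the apoptosome scaffold), Ei24 (a membrane protein of the endoplasmic reticulum) and Phlda3 (an inhibitor of Akt) had log2 fold changes of -0.11, -0.07 and -0.17.

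**Figure D3:**
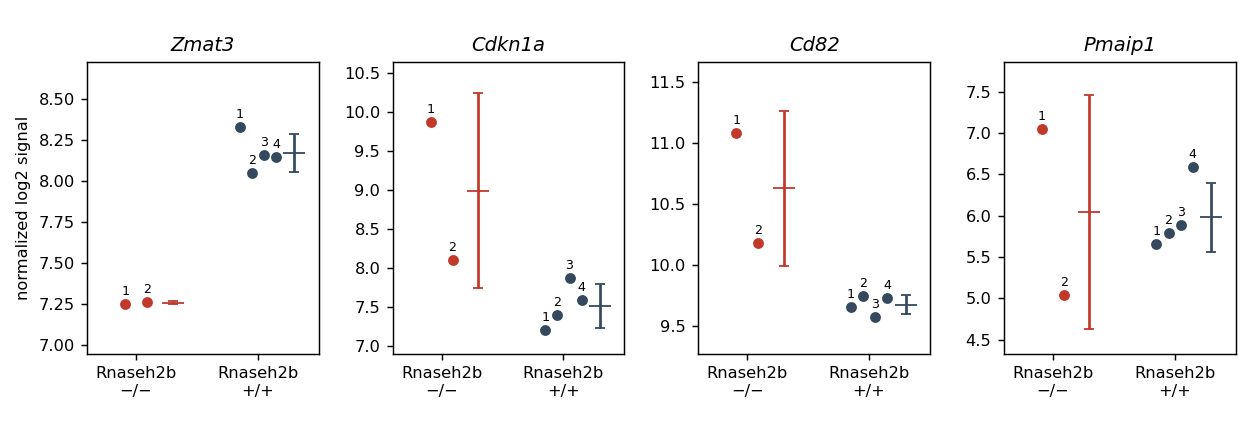
Normalized log2 signal of Zmat3, Cdkn1a, Cd82 and Pmaip1 in each line (numbered points), with the mean and SD of the 2 Rnaseh2b-/- and 4 Rnaseh2b+/+ lines (bars); each panel has its own axis. The Rnaseh2b-/- lines coincide for Zmat3 (7.25 and 7.26) and stand far apart for Cdkn1a (9.87 and 8.10), Cd82 (11.08 and 10.18) and Pmaip1 (7.05, and 5.05 in line 2, which is not above background).

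Death receptor genes did not pass the test either. Fas, the receptor for Fas ligand, was at 7.26 and 7.12 in the Rnaseh2b-/- lines, against 7.21, 7.73, 7.87 and 7.80 in the Rnaseh2b+/+ lines. Rnaseh2b+/+ line 1 lay with the Rnaseh2b-/- lines, and the log2 fold change was -0.46 (SE 0.21, 95% confidence interval -0.96 to 0.03, adjusted p = 0.306 by limma). Tnfrsf10b, the mouse TRAIL receptor, had a log2 fold change of -0.11 over 4 probes, and the groups overlapped for each of them. The probe above background on all 6 arrays averaged 8.10 in the Rnaseh2b-/- lines and 8.04 in the Rnaseh2b+/+ lines, a log2 difference of 0.06, and the other 3 were above background in neither Rnaseh2b-/- line. Eda2r, the receptor for ectodysplasin A2, was above background in 1 of the 2 Rnaseh2b-/- lines (5.51 and 4.89) and in none of the 4 Rnaseh2b+/+ lines (5.18, 5.15, 5.56 and 4.56), so its difference is not a measured fold. The undetected signal of 5.56 in Rnaseh2b+/+ line 3 was above the detected one.

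The 4 DNA repair members all had negative differences, from -0.32 to -0.07, and none passed the test. Of all genes tested, 47.4% had a positive difference. Ddb2 encodes a damage sensor of nucleotide excision repair. It was at 5.84 and 6.23 in the Rnaseh2b-/- lines, against 6.03, 6.60, 6.45 and 6.36 in the Rnaseh2b+/+ lines, with overlapping groups (log2 fold change -0.32, SE 0.20, adjusted p = 0.446 by limma). Its 3 kept probes gave log2 differences of -0.64, -0.16 and -0.17, and the first was above background in only 1 Rnaseh2b-/- line. Ercc5, the gene of the XPG endonuclease of the same pathway, was at 8.61 and 8.64 in the Rnaseh2b-/- lines, against 8.83, 9.22, 8.80 and 8.85 in the Rnaseh2b+/+ lines. Both Rnaseh2b-/- lines lay below the controls, and Rnaseh2b+/+ line 2 stood above the other controls (log2 fold change -0.30, SE 0.16, adjusted p = 0.378 by limma). Xpc, a further damage sensor, and Polk, a translesion polymerase, were at -0.07 and -0.08.

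Of 5 stress and metabolism genes, 1 had a positive difference (47.4% of all genes) and none passed the test. It was Sesn1, a sestrin that restrains mTORC1. It was at 8.22 and 8.49 in the Rnaseh2b-/- lines, against 7.77, 8.28, 8.23 and 8.26 in the Rnaseh2b+/+ lines (log2 fold change 0.23, SE 0.19, adjusted p = 0.575 by limma). Rnaseh2b+/+ line 1 was low, and the other 3 controls lay between the values of the Rnaseh2b-/- lines. Sesn2, a second sestrin, was at -0.20, Ddit4, another inhibitor of mTORC1, at -0.09, and Abhd4, a lipid hydrolase, at -0.23. Steap3, a ferrireductase of endosomes, gave a detectable signal on 1 of the 2 Rnaseh2b-/- arrays and on 1 of the 4 Rnaseh2b+/+ arrays. These signals came from different probes, each below background throughout the other group, with fitted log2 differences of 0.13 and -0.36. The difference of Steap3 is thus not a measured fold.

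Cd82, a tetraspanin of the cell surface read by a single probe, was high in both Rnaseh2b-/- lines. Its signal was 11.08 and 10.18 in the Rnaseh2b-/- lines, against 9.65, 9.75, 9.57 and 9.72 in the Rnaseh2b+/+ lines. The controls were tightly grouped (SD 0.08), and Rnaseh2b-/- line 1 lay 0.91 log2 units above line 2, a gap that 7.56% of all genes reached. The log2 fold change was 0.96 (SE 0.24, unadjusted p = 0.00559, adjusted p = 0.136 by limma), or 1.94-fold. Without Rnaseh2b-/- line 2 it was 1.41, and without Rnaseh2b-/- line 1 it was 0.50. As for Cdkn1a, the muscle and epithelial markers (4.90 and 2.27 above the control mean in Rnaseh2b-/- line 1, 0.61 and 1.41 in Rnaseh2b-/- line 2) were highest in the same line, and their part in the result was not tested. Epha2, an ephrin receptor kinase, had a log2 fold change of 0.29 (SE 0.22, adjusted p = 0.535 by limma).

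The mean of the p53 targets as a list moved little from line to line, which does not show that single members did. The mean over the 29 members, relative to the control mean on the log2 scale, was 0.08 and -0.10 in Rnaseh2b-/- lines 1 and 2, against -0.12, 0.04, 0.05 and 0.04 in the Rnaseh2b+/+ lines. The outermost line was thus a control, Rnaseh2b+/+ line 1. In Rnaseh2b-/- line 1, Cdkn1a, Cd82 and Pmaip1 were at 9.87, 11.08 and 7.05, against control means of 7.51, 9.67 and 5.98. Zmat3 was low there, at 7.25 against 8.17, and such opposite differences cancel in a mean. The median SD over the 4 controls was 0.22 for the members, beside 0.19 for all genes tested, and the median gap between the Rnaseh2b-/- lines was 0.23, beside 0.25 for all genes. The median size of the log2 fold change was 0.17 for the members and 0.21 for all genes.

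Genes around the p53 pathway were read from the same fit. Of 26 other p53 targets, 16 were tested and none passed the threshold (limma). Before adjustment 2 of them (12.5%, beside 7.99% of all genes) had a positive and 4 (25.0%, beside 9.13%) a negative difference with p under 0.05, and the median log2 fold change was 0.10. Thbs1, which encodes the secreted angiogenesis inhibitor thrombospondin-1, came nearest. It averaged 9.04 ± 0.27 in the Rnaseh2b-/- lines (SD, n = 2), against 10.22 ± 0.21 in the Rnaseh2b+/+ lines (SD, n = 4), with no overlap (log2 fold change -1.19, SE 0.19, adjusted p = 0.0576 by limma). Rprm, which encodes a protein of arrest in G2, was at 0.89 (adjusted p = 0.0893), Aifm2, an oxidoreductase that protects from ferroptosis, at 0.77 (adjusted p = 0.156) and Trp53i13 at -0.57 (adjusted p = 0.208). Of 22 regulators and relatives of p53, 17 were tested, with none past the threshold (limma), and before adjustment 2 positive (11.8%) and 1 negative difference (5.88%) had p under 0.05. For 2 of these 3 a whole group was below background. Crebbp, a histone acetyltransferase and coactivator of p53, was above background in neither Rnaseh2b-/- line and in all 4 Rnaseh2b+/+ lines, at least 1.23-fold lower in the Rnaseh2b-/- lines (adjusted p = 0.121). Prkdc, the DNA-dependent protein kinase, was above background in 1 of 2 Rnaseh2b-/- lines and in no Rnaseh2b+/+ line, and no fold can be given (adjusted p = 0.181). Chek2, a checkpoint kinase, was at 0.36 (adjusted p = 0.235) and Usp7, a deubiquitinase of Mdm2, at -0.27 (adjusted p = 0.317). The p53 relatives Trp63 and Trp73, which bind like DNA elements, and Mdm4, Atr and Ppp1r13l were above background on no array.

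Genes that p53 represses through p21 and the DREAM complex, mostly of mitosis and replication, had slightly positive differences. The difference was positive for 14 of the 15 tested, beside 47.4% of all genes, with a median of 0.29, but none passed at an adjusted or unadjusted p under 0.05. Their mean lay 0.55 and 0.02 above the control mean in Rnaseh2b-/- lines 1 and 2, against 0.43, -0.39, -0.06 and 0.03 in the Rnaseh2b+/+ lines, so that Rnaseh2b-/- line 1 and Rnaseh2b+/+ line 1 were both high. In the ATF4 stress response, whose known targets include Ddit4 and Sesn2, 14 of 15 genes were tested with none past the threshold (limma) and 2 higher (14.3%, beside 7.99% of all genes) at an unadjusted p under 0.05. These were Atf3, a stress transcription factor (0.69, adjusted p = 0.0962 by limma), and Slc7a11, a cystine transporter (0.51, adjusted p = 0.148 by limma). Atf3 was above background in both Rnaseh2b-/- lines but in only 1 Rnaseh2b+/+ line (5.37, 5.22, 5.43 and 5.55 in the controls). Its control level was thus mostly background.

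**Figure D4:**
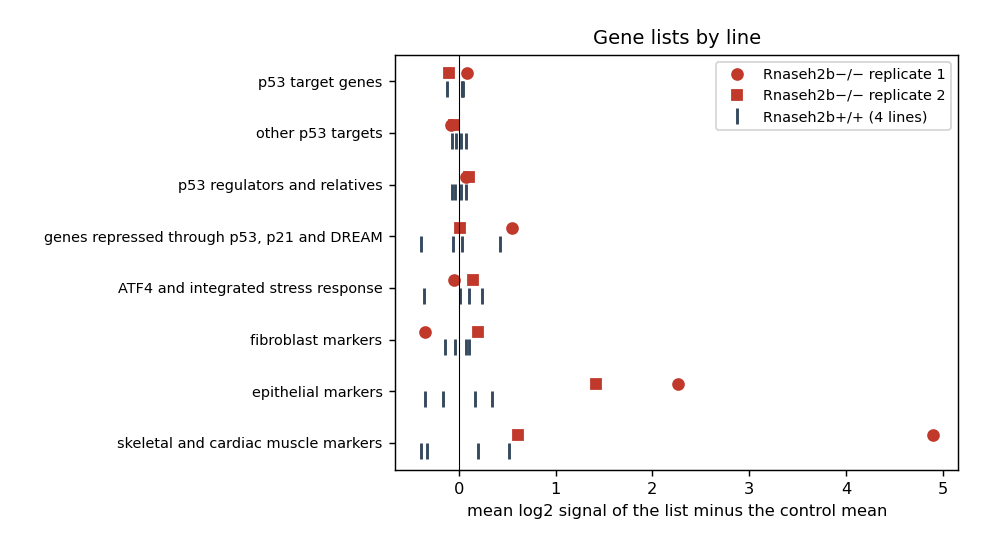
Mean log2 deviation from the Rnaseh2b+/+ mean, for the p53 target genes and the other lists (rows), in Rnaseh2b-/- line 1 (circles), line 2 (squares) and the 4 Rnaseh2b+/+ lines (ticks). The mean of the p53 targets stays between -0.12 and 0.08 in all 6 lines, while that of the muscle markers reaches 4.90 and that of the epithelial markers 2.27 in Rnaseh2b-/- line 1.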

How the data were processed

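Total RNA of 2 Rnaseh2b-/- and 4 Rnaseh2b+/+ MEF lines, labelled as biological replicates, was hybridised to 1-colour Illumina MouseWG-6 v2.0 BeadChips. The authors deposited bead-summary intensity per probe, not normalized, with a detection p-value against negative control beads (in steps of 1 in 936). The deposited log2 values are the authors' neqc result, and served as an alternative. Each array had 15519 to 16114 probes above background, and precision is limited by how many arrays there are. Sharing of BeadChips between arrays is not given in the sources used here.

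Background correction and quantile normalization of the intensity used neqc of limma 3.58.1 (R 4.3.3, offset 16), and the result differed from the deposited log2 values by at most 0.109. The platform annotation gave 1 symbol to 34885 of the 45281 probes, several to 18 and none to 10378; the last 2 kinds were left out. Probes with detection p under 0.01 on at least 1 array were kept (15805) and averaged by gene (10160 genes). Where a whole group was below background for a probe, its value there is only a bound, set by the lowest signal above background on each array. A 2-group linear model was fitted by lmFit and eBayes (degrees of freedom 4 residual, 3.07 prior) to all genes, and p-values were adjusted by Benjamini-Hochberg. Promoters were matched by symbol to RefSeq tables of GRCm38.p6. The procedure was tested on simulated data.

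The members and lists were chosen with earlier results of these data known. Values are given in full for Cdkn1a, Mdm2, Bbc3, Zmat3 and Ddb2, for members with an unadjusted p under 0.05, with both Rnaseh2b-/- lines outside all controls and a log2 fold change over 0.5 in size, above background in 1 group only, or with a control line apart by Dixon's ratio, and for the 2 largest and the 2 smallest control SDs. Bax fell under the same rule without a named probe. Rps27l, Fas, Tnfrsf10b, Steap3 and the members given by a single value were named after their values were seen. From each list around the pathway, up to 4 genes with the smallest p were named. The alternatives were other filters, normalizations, probe summaries and variance models, a replicate block, and each line left out.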

Additional observations from a re-analysis of the deposited data

Results flagged for a closer look

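Among the 4 Rnaseh2b+/+ lines, 3 of 38 sets of values had a line apart from the others by Dixon's ratio (the gap to the nearest line over the whole range, against the 95% critical value for 4 values). Chance gives such a line in about 1 of 20 sets, or 1.9 of 38. The ratio was 0.894 for Ercc5, where Rnaseh2b+/+ line 2 was high at 9.22. It was 0.898 for Sesn1, where Rnaseh2b+/+ line 1 was low at 7.77. It was 0.922 for the mean over the p53 target genes, where Rnaseh2b+/+ line 1 lay at -0.12 and the other controls between 0.04 and 0.05.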

How the results depend on the processing

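Over 17 alternatives and the 29 members, the count of members higher was 0 in every one that kept both Rnaseh2b-/- lines. A fit with 1 Rnaseh2b-/- line has no spread within that group, so no calls are counted from it. Without Rnaseh2b-/- line 2 the log2 fold change was 2.36 for Cdkn1a and 1.41 for Cd82. Without Rnaseh2b-/- line 1 it was 0.59 and 0.50. The count lower was 1 (Zmat3), with a range of 0 to 1. It became 0 with cyclic loess (adjusted p = 0.0567 by limma), the brightest probe of a gene (0.0505) and each probe tested (0.0546). The same held with array weights (0.0549), with the replicate block (0.385), and without Rnaseh2b+/+ line 2 (0.142), 3 (0.141) or 4 (0.158). Without these control lines at most 8 of all genes were higher and 1 lower past the threshold. The direction of Zmat3 was negative throughout. Only 2 replicate numbers were shared and they name independent lines, and same-numbered deviations correlated at 0.10 and 0.06. With the replicate block no member was higher (0) or lower (0). None of the 10160 genes passed in that fit, Rnaseh2b included, so its counts say nothing about the members. Directions turned for 11 members, none called. Under scaling by the median the typical gene tested stood at -0.16 and the typical member at -0.21, with -0.11 for Mdm2 and -0.18 for Plk2. Array weights gave -0.063 for Plk2 and -0.059 for Pmaip1. The brightest probe gave 0.13 for Steap3 and 0.055 for Tnfrsf10b, no filter gave 0.022 for Steap3, and the replicate block gave 0.079 for Ddit4 and 0.015 for Xpc. With single lines left out, the fitted log2 difference (no measured fold for Eda2r, Psrc1 and Steap3, nor for Pmaip1 at its lower end, where signals are below background) ranged from -0.23 to 0.0081 for Steap3, -0.58 to 0.11 for Abhd4, -0.26 to 0.018 for Ccng1, -0.22 to 0.030 for Ddit4, -0.23 to 0.40 for Eda2r, -0.021 to 0.18 for Mdm2, -0.11 to 0.18 for Plk2, -0.93 to 1.07 for Pmaip1, -0.26 to 0.034 for Psrc1, -0.28 to 0.058 for Tnfrsf10b and -0.17 to 0.014 for Xpc. The other values given here for Steap3 are no measured folds either. With 2 Rnaseh2b-/- lines, a difference that 1 line carries cannot be told from a difference of the genotype, and a probe near background has a compressed fold.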

Other observations

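Among the fibroblast markers, Dcn, which encodes the matrix proteoglycan decorin, was at 11.30 and 11.82 in the Rnaseh2b-/- lines, against 10.00, 9.95, 9.24 and 9.38 in the Rnaseh2b+/+ lines (log2 fold change 1.92, SE 0.28, adjusted p = 0.0459 by limma). It was the 1 gene past the threshold among the 12 tested, while 0.354% of all genes were higher past it. Of the 12, 3 had a positive and 9 a negative difference, beside 47.4% positive among all genes. The array detected 3 of 11 markers of blood and macrophages, none of which passed (limma), 0 at an unadjusted p under 0.05; the defining markers Ptprc, Adgre1, Csf1r and Itgam were above background on no array. Of the 18 tested muscle markers, all 18 had a positive difference, beside 47.4% of all genes. At an unadjusted p under 0.05 (limma) 15 were higher (83.3%, beside 7.99% of all genes), 3 of them with no control above background. Myod1, Tnnt3, Ttn and Mymk were above background in Rnaseh2b-/- line 1 alone. These 4 passed the filter through that line, so their sign was set by it. The list was also chosen with earlier results known, so its counts are a description and no test. None passed the adjusted threshold (limma). Myl4, a myosin light chain, was at 13.69 and 9.16 in the Rnaseh2b-/- lines, against 8.86, 8.79, 8.12 and 7.76 in the Rnaseh2b+/+ lines. Krt8, an epithelial keratin, was at 10.09 and 8.33 in the Rnaseh2b-/- lines, against 6.20, 6.70, 5.58 and 5.72 in the Rnaseh2b+/+ lines. Both genes were higher in Rnaseh2b-/- line 1 than in line 2.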
